A study of Mus musculus with 14 samples.

Results

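Histone lysine demethylases remove methyl groups from lysines of histone tails. The genes described here are Kdm1a, Kdm2b, Kdm3a, Kdm3b, Kdm4a, Kdm4b, Kdm4c, Kdm5a, Kdm5b and Kdm6b, a set list of 10 symbols found among the 24015 names of the deposited count table. All 10 were present and all 10 passed the filter on low counts, as did 16247 genes in total. RNA was sequenced from 14 libraries of mouse pluripotent cells, 2 in each of 7 groups.

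The ESC group (genotype label CD1/JF1) holds blastocyst-derived embryonic stem cells, grown with LIF and serum replacement on feeder cells. EpiSC (CD1/JF1) are blastocyst-derived epiblast stem cells, titled 9FEpi, grown with 10 ng/ml bFGF. The day 3 and P2 groups (CD1/JF1) are EpiSC moved to LIF medium with 100 µM MM401, which the series title names as an inhibitor of the histone H3 lysine methyltransferase Mll1, for 3 days or for 6 days (passage 2). The reverted lines, rES (CD1-deltaTSIX/JF1), came from EpiSC, were kept at 25 µM MM401 with LIF after passage 3, and were sampled at passage 6, at passage 30, and at passage 30 without MM401. No untreated cells were sampled at day 3 or P2, and LIF medium came with MM401, so the 2 cannot be told apart. The rES genotype label differs from that of every other group, so line and state cannot be told apart in comparisons of rES with ESC or EpiSC. The sources used here name feeders for ESC alone and do not say whether rES is 1 clone. The second P2 library carries P2b in its title and the first carries P2.

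Histone demethylases fall into 2 enzyme classes. Kdm1a is a flavin-dependent amine oxidase, which acts on mono- and dimethylated lysines, whereas the others carry a JmjC domain that uses iron and 2-oxoglutarate. Kdm1a and the Kdm5 enzymes remove methylation of lysine 4 of histone H3, a mark of active promoters and enhancers and the same residue that Mll1 methylates. Kdm3a and Kdm3b act on mono- and dimethylated lysine 9, the Kdm4 enzymes on trimethylated lysines 9 and 36, and Kdm6b on trimethylated lysine 27, the Polycomb mark. Kdm2b demethylates lysine 36 and, through its zinc finger, brings a variant Polycomb complex, PRC1.1, to unmethylated CpG islands. In mouse embryonic stem cells Kdm3a and Kdm4c are known as targets of Pou5f1, and Kdm1a as an enzyme needed to silence enhancers at differentiation.

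Promoter windows are shown for the 3 genes of widest range across groups that had an entry in the RefSeq table (Kdm3a, Kdm2b, Kdm5b) and for Kdm1a, which kept to a narrow range. Each runs from 250 bases before to 50 after a transcription start (GRCm38.p6, a later build than the mm9 of the counts), 5′ to 3′ on the strand of the gene. Of several starts, that with the most CpG was taken. Capitals mark the GC box GGGCGG or its reverse complement CCGCCC, the letters that Sp and Kruppel-like factors are known to bind, counted on both strands with overlaps allowed and with no other motif searched.
Kdm3a, chr6:71632637-71632936, minus strand: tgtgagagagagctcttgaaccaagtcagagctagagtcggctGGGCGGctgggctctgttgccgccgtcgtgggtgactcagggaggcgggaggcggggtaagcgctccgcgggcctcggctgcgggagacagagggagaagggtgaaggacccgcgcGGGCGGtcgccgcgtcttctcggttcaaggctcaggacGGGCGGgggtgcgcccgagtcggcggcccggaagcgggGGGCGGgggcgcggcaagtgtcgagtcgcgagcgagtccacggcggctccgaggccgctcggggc
Kdm2b, chr5:122900301-122900600, minus strand: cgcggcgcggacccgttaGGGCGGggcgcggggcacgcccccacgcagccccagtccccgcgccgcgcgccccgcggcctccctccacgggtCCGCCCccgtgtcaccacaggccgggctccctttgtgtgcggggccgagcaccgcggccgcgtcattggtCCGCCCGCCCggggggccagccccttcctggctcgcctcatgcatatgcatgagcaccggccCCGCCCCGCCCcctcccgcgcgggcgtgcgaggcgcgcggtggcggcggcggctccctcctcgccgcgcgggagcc
Kdm5b, chr1:134559928-134560227, plus strand: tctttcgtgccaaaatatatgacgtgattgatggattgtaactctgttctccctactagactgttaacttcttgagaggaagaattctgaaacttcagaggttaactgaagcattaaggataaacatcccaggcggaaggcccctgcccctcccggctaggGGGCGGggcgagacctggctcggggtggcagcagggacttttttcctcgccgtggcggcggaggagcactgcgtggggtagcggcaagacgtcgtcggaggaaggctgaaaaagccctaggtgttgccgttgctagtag
Kdm1a, chr4:136602674-136602973, minus strand: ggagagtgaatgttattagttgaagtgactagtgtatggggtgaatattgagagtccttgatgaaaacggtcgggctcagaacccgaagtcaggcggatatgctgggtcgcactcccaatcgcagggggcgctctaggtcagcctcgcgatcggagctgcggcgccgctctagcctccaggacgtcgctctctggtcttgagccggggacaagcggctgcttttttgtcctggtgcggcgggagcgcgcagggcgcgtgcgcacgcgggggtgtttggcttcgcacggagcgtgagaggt
The Kdm3a window held 4 GC boxes and 40 CpG, that of Kdm2b 6 and 49, that of Kdm5b 1 and 17, and that of Kdm1a 0 and 29. At its other starts Kdm3a had 3 and 24, and 0 and 0. Kdm2b had 6 and 47, 0 and 18, and 1 and 28 at its own. Kdm5b and Kdm1a had no other entry. The motif contains a CpG, so the choice by CpG favours windows that hold it. Entries existed for 6 of the 10 genes (the 4 shown, Kdm4a and Kdm4c), with 12 windows, of which 7 held the motif. Some windows of Kdm2b and of Kdm3a overlap and share boxes, so the 12 are not separate promoters. The motif was present in 35.7% of all 32851 windows of 300 bases, whose median was 7 CpG. These matches describe the letters of the windows and were not tested against expression.

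Levels are given as CPM, counts scaled to library size after TMM normalization, and can be compared between groups for a gene. The lysine 4 demethylase Kdm5b was counted at 249 and 252 CPM in EpiSC, 725 and 734 at day 3, 476 and 436 at P2, 747 and 740 in rES passage 6, 879 and 906 in rES passage 30, 809.7 and 842 without MM401, and 882 and 865 in ESC. Both EpiSC libraries lay below all others, and only rES passage 30 and ESC overlapped. Kdm1a ran from 216 and 224 CPM in ESC to 349.6 and 348 at day 3, with 262.6 and 262.4 in EpiSC, 279 and 271 at P2, 265 and 263 in rES passage 6, 268 and 278 in rES passage 30, and 258 and 253 without MM401. The day 3 libraries stood above and the ESC libraries below all others, and the remaining groups lay within 253 to 279 CPM. Kdm5a was the least variable of the 10, with group means from 109 CPM in EpiSC to 149 in rES passage 30. The lowest and the highest group did not overlap, but 4 of the 6 pairs of neighbours in the order did.

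Kdm2b separated the groups into a low and a high set. It had 86.1 and 85.5 CPM in EpiSC, 104 and 108 at day 3, and 66.0 and 62.9 at P2, against 223 and 220 in rES passage 6, 276 and 252 in rES passage 30, 228 and 246 without MM401, and 292 and 289 in ESC. P2 was the lowest group and ESC the highest, and no neighbouring groups overlapped.

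Among the lysine 9 demethylases, Kdm3a had the widest range of all 10 genes. It stood at 61.0 and 68.4 CPM in EpiSC, 192 and 194.5 at day 3, 125 and 119.7 at P2, 312 and 326 in rES passage 6, 350.5 and 376 in rES passage 30, 373 and 378 without MM401, and 331.2 and 330.7 in ESC. Only the 2 passage 30 groups overlapped. Kdm4b had 40.9 and 38.6 CPM in EpiSC, 73.5 and 78.3 at day 3, 46.6 and 42.2 at P2, 181 and 179.8 in rES passage 6, 190.2 and 168 in rES passage 30, 187 and 194.5 without MM401, and 133 and 137 in ESC. Its rES libraries were all above ESC, and its P2 libraries lay just above EpiSC. Kdm4c followed a like order, from 67.8 and 69.3 CPM in EpiSC through 97.2 and 102 at day 3, 82 and 76.9 at P2, 144 and 142 in ESC, and 189 and 185 in rES passage 6 to 226 and 234 in rES passage 30, with 224 and 220.2 without MM401. No neighbouring groups of Kdm4c overlapped. Kdm3b ran from 149 CPM in EpiSC to 332 in rES passage 30 (group means), with the groups in the same order as for Kdm4c. Kdm4a did not follow its paralogs: ESC was its highest group (195 and 196 CPM), followed by day 3 (179 and 178), and rES passages 6 and 30 overlapped near 138 to 139.5.

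The lysine 27 demethylase Kdm6b was highest where most of the others were lowest. It had 221 and 213 CPM in EpiSC, 179.5 and 176 at day 3, 148.5 and 146.5 at P2, 147.5 and 145 in rES passage 6, 159 and 138 in rES passage 30, 113 and 112 without MM401, and 135 and 138 in ESC. EpiSC was above all other groups, and rES passage 30 without MM401 below all.

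**Figure D1:**
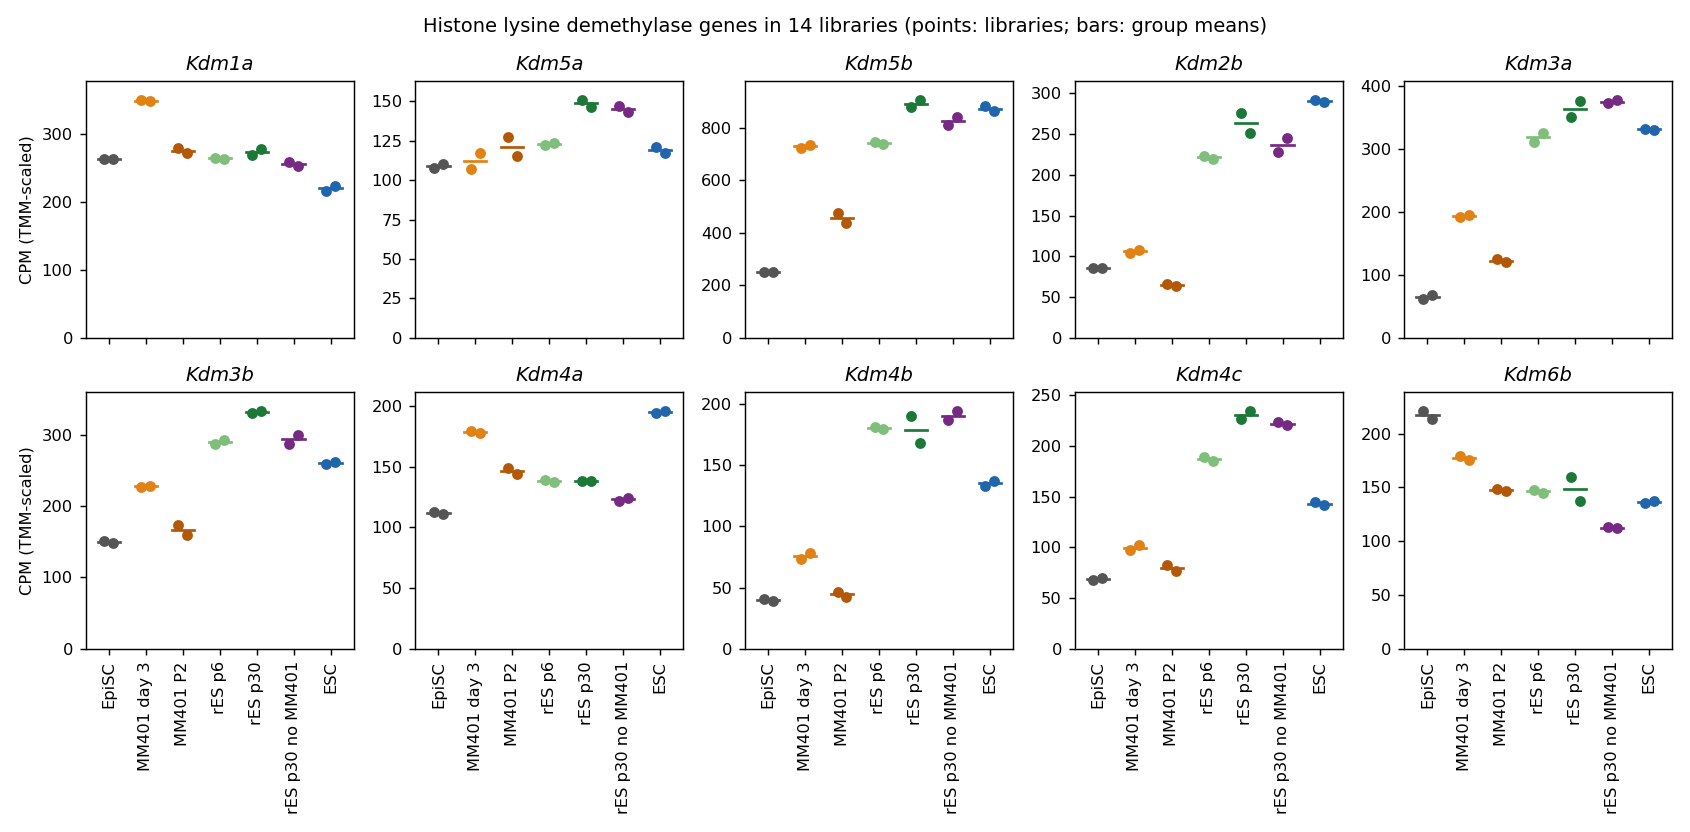
Level of each gene (vertical axis, TMM-scaled CPM from 0, a separate scale per gene) in the 14 libraries, by group. Points are libraries and bars are means of 2. EpiSC is the lowest group of 7 genes and the highest of Kdm6b, and the P2 libraries of 9 genes lie below those of day 3.

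Group means spanned 5.81-fold for Kdm3a, 4.8-fold for Kdm4b, 4.5-fold for Kdm2b, 3.57-fold for Kdm5b, 3.36-fold for Kdm4c and 2.23-fold for Kdm3b, the 6 genes beyond 2-fold. Kdm6b (1.93-fold), Kdm4a (1.74-fold), Kdm1a (1.59-fold) and Kdm5a (1.36-fold) varied less. In log2 units 5 of the 10 genes exceeded the median range of 1.29 over all 16247 genes, whose middle 50% ran from 0.78 to 2.26.

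Per kilobase of the longest protein-coding transcript (GENCODE M21), the order of the genes within a group changed between states. In EpiSC Kdm1a led with 86.7 CPM per kb, ahead of Kdm6b (32.6) and Kdm5b (28.7). In ESC Kdm5b led with 100.0, followed by Kdm1a (72.5), Kdm3a (68.2) and Kdm2b (56.1). Kdm1a was also first at day 3 (115 CPM per kb), at P2 (90.8) and in rES passage 6 (87.2, against 85.4 for Kdm5b), and Kdm5b in both rES passage 30 groups (102 and 94.8). Kdm3a ranked 8th of 10 in EpiSC and 3rd in ESC and all rES groups. Kdm5a stayed at 9.97 to 13.6 CPM per kb and was last in every group except EpiSC and P2, where Kdm4b (8.68 and 9.71) was. With the length of all annotated exons in place of the transcript, the first place was the same in each of the 7 groups, but lower ranks moved, and Kdm4b went from 8th to 5th in ESC. The sources used here do not name the authors' gene models.

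**Figure D2:**
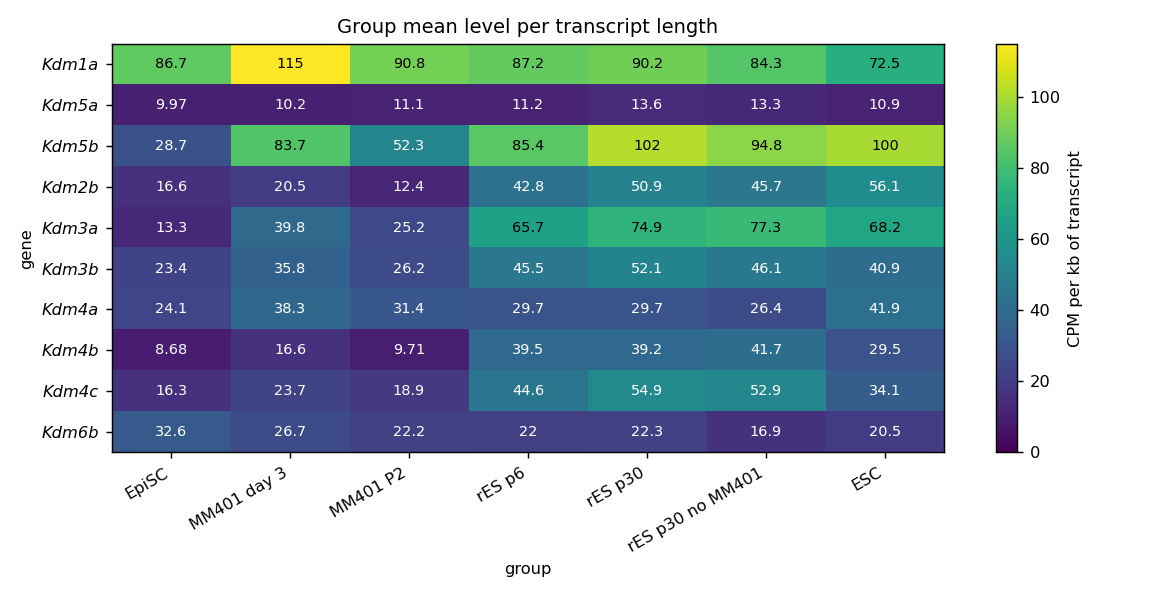
Group mean level per transcript length (CPM per kb, colour and printed value) of the 10 genes (rows) in the 7 groups (columns). Kdm1a leads in EpiSC with 86.7 CPM per kb, and Kdm5b in ESC with 100.0 and in rES passage 30 with 102.

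Libraries held 20831588 to 23677089 counts, but 113221270 and 116086115 at day 3 and 74952496 and 80383376 at P2, so depth and treatment cannot be told apart in those groups. After thinning to the smallest library, 89 of the 90 tests of the 10 genes kept their direction and their side of the threshold. The other, Kdm5a at day 3 against EpiSC, changed sign (-0.042) and was not called either way. Every one of the 10 genes had at least 934 counts in each library. The precursor of ribosomal RNA, Rn45s, took 2.005% of the counts of rES passage 30 replicate 2 and 0.548% of its replicate 1, and without Rn45s none of the 90 tests of the genes changed side. The 8 naive markers summed to 547 to 565 CPM in EpiSC and 3604 to 3619 in ESC, and the 8 primed markers to 2739 in EpiSC and 761 to 766 in ESC. All 8 naive markers were called higher in ESC. Of the primed markers 7 were called lower in ESC and 1, Fgf5, higher (7.61 to 21.1 CPM). Markers of feeder fibroblasts (20 genes, none at 0 in any group) summed to 6344 to 6408 CPM in EpiSC, 6343 to 6361 in ESC, 7380 to 7404 at day 3, 20330 to 20620 at P2, 4077 to 4108 in rES passage 6, and 1976 to 2118 in the passage 30 groups. Though the sums of EpiSC and ESC were alike, 11 of these genes were called higher in ESC and 8 lower. At least 2-fold changes were called for 6 of them. In bulk RNA, fewer cells of a type and less RNA per cell cannot be told apart. Markers of primitive endoderm (8 genes, none at 0) summed to 2926 to 2935 CPM in ESC and at most 919 elsewhere.

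The comparison of ESC with EpiSC asks how the naive and the primed state differ. Of the 10 genes 8 were higher in ESC and 2 lower. Kdm3a rose 5.12-fold (log2 fold change 2.35 ± 0.05, standard error, edgeR adjusted p = 1.53e-34), Kdm5b 3.49-fold (1.80 ± 0.04), Kdm4b 3.40-fold (1.77 ± 0.06), Kdm2b 3.39-fold (1.76 ± 0.05) and Kdm4c 2.09-fold (1.06 ± 0.05). Kdm3b (0.81 ± 0.04) and Kdm4a (0.80 ± 0.04) rose by less than 2-fold. Kdm6b fell by 0.67 ± 0.05 and Kdm1a by 0.26 ± 0.04 on the log2 scale. Kdm5a rose by 0.13 ± 0.05 (adjusted p = 0.018), a call lost without EpiSC replicate 1 (0.11, adjusted p = 0.119) or ESC replicate 1 (0.11, adjusted p = 0.133). Tests were two-sided quasi-likelihood F tests over all 14 libraries, with a call at adjusted p (Benjamini-Hochberg over 16247 genes) under 0.05. Each test used a spread estimated for the gene over all 14 libraries, from the 2 libraries of each group, which the series calls biological duplicates. A p-value therefore does not measure the spread of the 2 compared groups alone. Scatter between the 2 libraries of a group was uneven. Over genes of at least 20 counts in a group, chi-square per degree of freedom was 1.28 in ESC, 1.56 in EpiSC and 17.6 in rES passage 30. The background was 74.5% of genes called in this contrast, 37% upward and 37.5% downward, and 27.8% called with a change of at least 2-fold. The 5 of 10 with such a change were all higher in ESC, and the median of the 10 was 0.93 against 0.00 over all genes. With scaling to total counts the median of all genes moved to -0.15, the upward share of the calls from 49.7% to 40.3%, and Kdm5a turned to -0.03 (adjusted p = 0.647). All 8 primitive endoderm markers were higher in ESC, 7 of them at least 2-fold (median 4.33). Of the 20 feeder markers 11 were higher and 8 lower (median 0.23). The part of either set in these differences was not tested.

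After 3 days in LIF medium with MM401, 8 of the 10 genes were above EpiSC and Kdm6b was below it. Kdm3a (1.58 ± 0.04, 2.99-fold) and Kdm5b (1.54 ± 0.04, 2.91-fold) rose most. Kdm4b (0.93 ± 0.06), Kdm4a (0.67 ± 0.04), Kdm3b (0.61 ± 0.04), Kdm4c (0.54 ± 0.04), Kdm1a (0.41 ± 0.03) and Kdm2b (0.30 ± 0.04) rose less. Kdm6b fell by 0.29 ± 0.04. Kdm5a was not called (0.04 ± 0.05, adjusted p = 0.461), turned to -0.02 without day 3 replicate 2, and was called lower with scaling to total counts (-0.14, adjusted p = 0.00841). The background was 76.6% called, 38.7% upward and 37.9% downward, and 27.4% changed at least 2-fold, against 2 of the 10. The median of the 10 was 0.58, with 0.00 over all genes, or -0.17 with total counts, which also moved the upward share of the calls from 50.6% to 38.6%.

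At P2 most of these differences from EpiSC were smaller. Kdm3a (0.92 ± 0.05) and Kdm5b (0.86 ± 0.04) were still 1.89-fold and 1.82-fold higher, Kdm4a was 0.39 ± 0.04 higher, and Kdm6b (-0.56 ± 0.04) and Kdm2b (-0.41 ± 0.05) were lower. Kdm4c (0.21 ± 0.04), Kdm3b (0.16 ± 0.04), Kdm4b (0.16 ± 0.06) and Kdm5a (0.15 ± 0.05) rose little, and Kdm1a was not called (0.07 ± 0.03, adjusted p = 0.0784). In total 7 genes were higher and 2 lower (5 and 2 with DESeq2, where Kdm4b had an adjusted p of 0.114 and Kdm5a of 0.0805), and 75.9% of all genes were called, 42.1% higher and 33.8% lower. None of the 10 reached a 2-fold call with edgeR at an adjusted or an unadjusted p, or with DESeq2 (0 in each), against 27.5% of all genes. Without EpiSC replicate 2 the count was 1, since Kdm3a came to 1.003. Small rises rested on single libraries: Kdm4b was lost without EpiSC replicate 2 (0.12, adjusted p = 0.16) or P2 replicate 1 (0.09, adjusted p = 0.205), Kdm5a without P2 replicate 1 (0.08, adjusted p = 0.136), and Kdm1a was called without P2 replicate 2 (0.09, adjusted p = 0.0327). In a fit of the 4 libraries alone Kdm3b (adjusted p = 0.0663), Kdm4b (adjusted p = 0.198) and Kdm5a (adjusted p = 0.129) were not called. With total counts, which moved the median of all genes from 0.08 to -0.07 and the share of higher calls from 55.5% to 45.3%, Kdm3b, Kdm4b, Kdm4c and Kdm5a lost their calls and Kdm1a was called lower (-0.08, adjusted p = 0.0306). All 20 feeder markers were higher at P2 than in EpiSC, 19 of them at least 2-fold (median 1.61), and their part in these differences was not tested.

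Between day 3 and P2, 9 of the 10 genes fell and Kdm5a rose slightly. Kdm4b fell by 0.77 ± 0.05, Kdm2b by 0.72 ± 0.04, Kdm5b by 0.68 ± 0.04, Kdm3a by 0.66 ± 0.04 and Kdm3b by 0.45 ± 0.04, and Kdm1a, Kdm4c, Kdm4a and Kdm6b by 0.34 to 0.27 (largest adjusted p = 3.31e-07). Over all genes 70.8% were called, 37.5% higher and only 33.3% lower, and 15.8% changed at least 2-fold, against 0 of the 10 with edgeR at an adjusted or unadjusted p and with DESeq2. The median of the 10 was -0.40 and that of all genes 0.04. Kdm5a (0.11 ± 0.04) lost its call without day 3 replicate 1 (0.05, adjusted p = 0.415) or P2 replicate 1 (0.04, adjusted p = 0.473), and with DESeq2 (adjusted p = 0.169), RLE size factors (adjusted p = 0.102) or the 4 libraries alone (adjusted p = 0.162). In the same libraries all 20 feeder markers rose (median 1.53), and their part in the lower levels at P2 was not tested. All 8 naive markers fell as well (median -0.71).

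In the rES line 8 of the 10 genes were above EpiSC at both passages. At passage 6 Kdm3a (2.30 ± 0.05, 4.93-fold), Kdm4b (2.18 ± 0.06, 4.54-fold), Kdm5b (1.57 ± 0.04), Kdm4c (1.45 ± 0.04) and Kdm2b (1.37 ± 0.05) rose more than 2-fold, and Kdm3b (0.96 ± 0.04), Kdm4a (0.31 ± 0.04) and Kdm5a (0.17 ± 0.05) less. Passage 30 held Kdm3a at 2.49 ± 0.05 (5.62-fold, edgeR adjusted p = 1.1e-35), Kdm4b at 2.17 ± 0.06, Kdm5b at 1.83 ± 0.04, Kdm4c at 1.75 ± 0.04, Kdm2b at 1.62 ± 0.05, Kdm3b at 1.15 ± 0.04, Kdm5a at 0.45 ± 0.05 and Kdm4a at 0.30 ± 0.04. Kdm6b was lower at both (-0.57 ± 0.05 and -0.55 ± 0.05). Kdm1a was not called at passage 6 (0.01 ± 0.04, adjusted p = 0.836) or passage 30 (0.06 ± 0.04, adjusted p = 0.146). With total counts it was called lower at both (-0.12 and -0.10), and Kdm5a lost its call at passage 6 (0.05, adjusted p = 0.407). At passage 6 the background was 73.8% called, 38.7% upward and 35.1% downward, with 28.7% at least 2-fold, against 5 of the 10. At passage 30 the shares were 76.3%, 38%, 38.3% and 32%, against 6 of the 10. The medians of the 10 were 1.16 and 1.39, those of all genes 0.04 and -0.02, or -0.09 and -0.17 with total counts, where the upward share of the calls at passage 30 was 40.4% against 49.8%. Of the 20 feeder markers 13 were lower than in EpiSC at passage 6 (median -0.65) and 18 at passage 30 (12 at least 2-fold, median -1.80), and their part in these differences was not tested. These comparisons and those of ESC, day 3 and P2 share the EpiSC libraries.

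**Figure D3:**
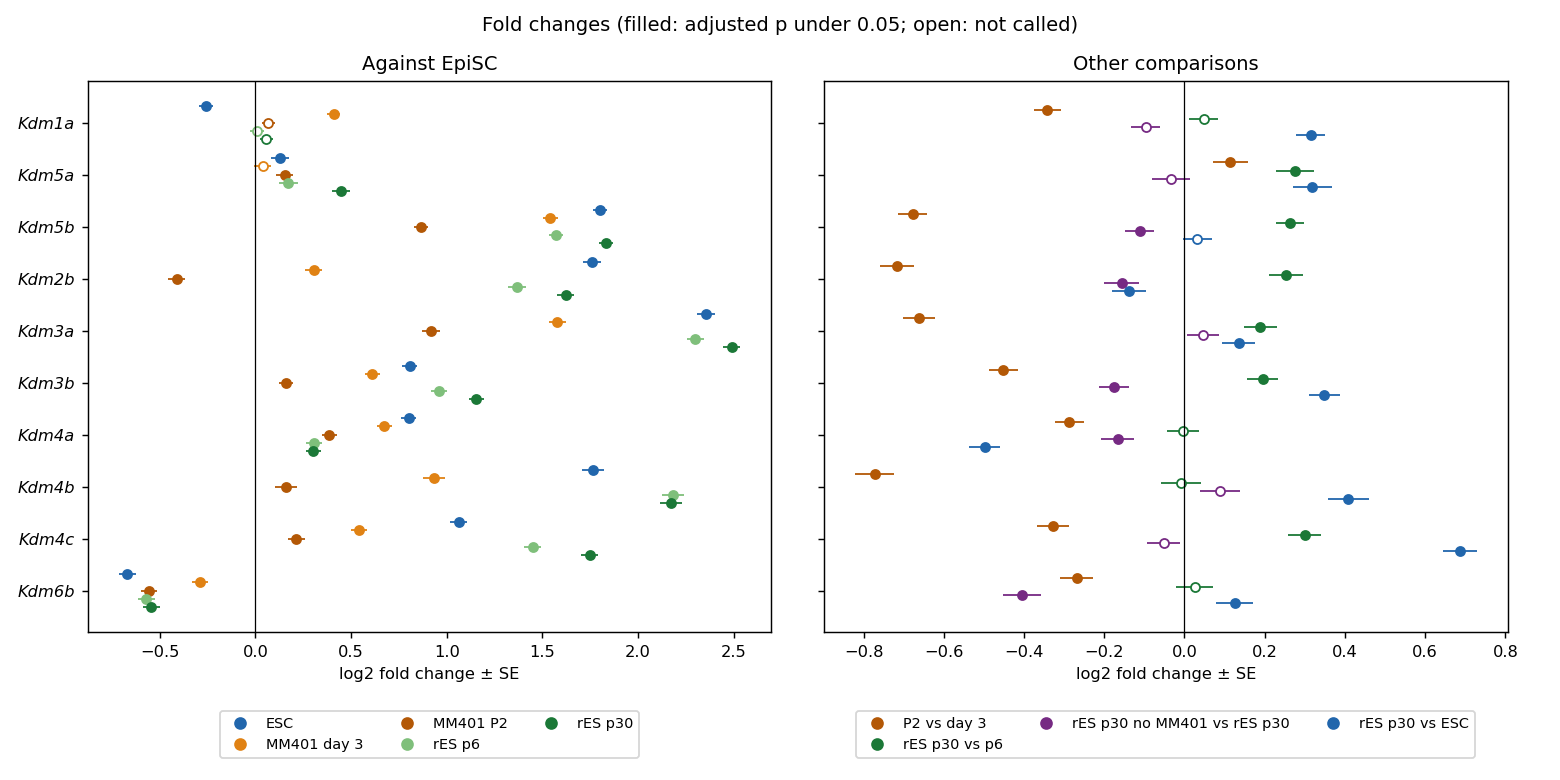
Log2 fold change (horizontal axis, with standard error) of the 10 genes against EpiSC (left) and in 4 other comparisons (right), filled where the adjusted p was under 0.05. Against EpiSC, Kdm3a reaches 2.49 in rES passage 30 and Kdm6b lies below 0 in all 5 groups, and between day 3 and P2 (right) 9 genes lie below 0.

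Within the rES line the genes moved little between passages. From passage 6 to 30, 6 rose: Kdm4c (0.30 ± 0.04), Kdm5a (0.28 ± 0.05), Kdm5b (0.26 ± 0.04), Kdm2b (0.25 ± 0.04), Kdm3b (0.20 ± 0.04) and Kdm3a (0.19 ± 0.04). None fell, with edgeR at an adjusted or unadjusted p or with DESeq2 (0 in each). The other 4, Kdm1a (0.05 ± 0.04), Kdm6b (0.03 ± 0.05), Kdm4a and Kdm4b (-0.00 ± 0.04 and -0.01 ± 0.05), were not called. The background was 25.6% called, 11.3% upward and 14.4% downward, and 2.52% changed at least 2-fold, against 0 of the 10 by each of those tests. The 6 calls held in each library left out in turn. Total counts lowered the upward share of the calls from 43.9% to 33.3%, and RLE size factors raised it to 54.3%, with 6 of the 10 called in both. All 20 feeder markers fell between these passages (median -0.96), and their part in the rises was not tested.

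Growth of passage 30 rES without MM401 asks whether the line keeps its expression when the inhibitor is withdrawn. Of the 10 genes 5 were lower without MM401 and none higher. Kdm6b fell by 0.41 ± 0.05 (1.32-fold, edgeR adjusted p = 3.7e-08), Kdm3b by 0.18 ± 0.04, Kdm4a by 0.17 ± 0.04, Kdm2b by 0.16 ± 0.04 and Kdm5b by 0.11 ± 0.04 (adjusted p = 0.022). Not called were Kdm1a (-0.10 ± 0.04, adjusted p = 0.0546), Kdm4c (-0.05 ± 0.04), Kdm5a (-0.03 ± 0.05), Kdm3a (0.05 ± 0.04) and Kdm4b (0.09 ± 0.05). The background was 19.7% called, 10.4% upward and 9.3% downward, and 0.271% changed at least 2-fold. The number higher was 0 and the number past 2-fold was 0 with edgeR at an adjusted and an unadjusted p, and with DESeq2. The calls of Kdm2b and Kdm5b depended on single libraries. Kdm2b was lost without rES passage 30 replicate 1 (-0.09, adjusted p = 0.249) or without MM401-free replicate 1 (-0.10, adjusted p = 0.163). Kdm5b was lost without rES passage 30 replicate 2 (-0.09, adjusted p = 0.167), without MM401-free replicate 1 (-0.08, adjusted p = 0.179) and in a fit of the 4 libraries alone (adjusted p = 0.0963). Without MM401-free replicate 1 the count of called genes was 3. Without rES passage 30 replicate 1, Kdm4b was called higher (0.18, adjusted p = 0.0255) and Kdm1a lower (-0.12, adjusted p = 0.0429), as Kdm1a also was with DESeq2 (adjusted p = 0.0209).

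The reverted line at passage 30 was compared with ESC to ask how near it came to the naive reference. No gene of the 10 differed by 2-fold (0 with edgeR at an adjusted or unadjusted p, and 0 with DESeq2), where 23.3% of all genes did. Kdm4c was 1.61-fold higher in rES (0.69 ± 0.04), Kdm4b 1.33-fold (0.41 ± 0.05), Kdm3b 1.27-fold (0.35 ± 0.04), Kdm5a less (0.32 ± 0.05) and Kdm1a 1.24-fold (0.31 ± 0.04). Kdm4a was lower by 0.50 ± 0.04. Smaller differences were called for Kdm2b (-0.14 ± 0.04), Kdm3a (0.13 ± 0.04) and Kdm6b (0.12 ± 0.05), and Kdm5b was not called (0.03 ± 0.04, adjusted p = 0.436). Without rES passage 30 replicate 2, Kdm2b (-0.07, adjusted p = 0.188) and Kdm3a (0.08, adjusted p = 0.109) lost their calls. Kdm6b lost its call without ESC replicate 1 (0.11, adjusted p = 0.112) or rES passage 30 replicate 1 (0.0038, adjusted p = 0.954), and its libraries overlapped. The background was 71.1% called, 35.3% upward and 35.8% downward, and of the 10 genes 7 were higher and 2 lower. Their median was 0.22, with -0.01 over all genes. Feeder markers were lower in rES for 19 of 20 genes (median -1.34) and primitive endoderm markers for 7 of 8 (median -3.05), and their part in these differences was not tested.

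Over the 14 libraries the genes of widest range varied together. Of 45 pairs, 9 had a Pearson r of log2 CPM over 0.9, and all 9 lay among Kdm2b, Kdm3a, Kdm3b, Kdm4b, Kdm4c and Kdm5b, with Kdm4b and Kdm4c highest (0.978). Kdm6b had a negative r with 8 of the other 9 genes, down to -0.8 with Kdm3a, and 0.393 with Kdm1a. Kdm4a, though a paralog of Kdm4b and Kdm4c, had 0.128 and 0.0037 with them. Libraries of a group share their treatment, so these 14 points are 7 pairs of like values, and r is a description. Among 10182 other genes of at least 10 CPM, the pattern of Kdm3a was most like that of the glycolytic enzyme gene Pgk1 (r = 0.998), then Gcat (0.993) and Nr0b1 (0.993). Kdm4b was nearest to Zfp553 (0.992), Renbp (0.991) and Grik3 (0.988), and Kdm2b to Peg10 (0.992), Pik3cb (0.987) and Pdk1 (0.986).

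**Figure D4:**
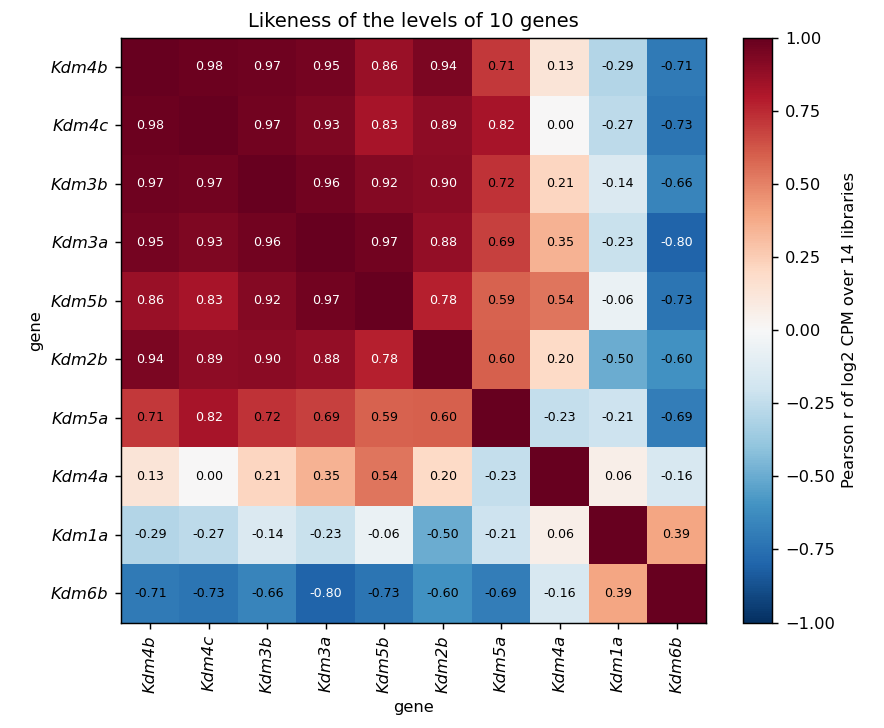
Pearson r of log2 CPM over the 14 libraries for each pair of the 10 genes (colour and printed value, rows and columns the same genes). Kdm4b, Kdm4c, Kdm3b, Kdm3a, Kdm5b and Kdm2b form a block of high r, and Kdm6b is negative with 8 genes.

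A list of 22 other lysine demethylase and JmjC genes, of which 21 were tested (Kdm4d was too low), was counted in the same way, with no test against the 10 genes. Of all genes 37% were higher and 37.5% lower in ESC than in EpiSC, and 38.7% and 37.9% at day 3. The shares were 42.1% and 33.8% at P2, 38.7% and 35.1% in rES passage 6, and 38% and 38.3% in rES passage 30. They were 37.5% and 33.3% from day 3 to P2, and 11.3% and 14.4% from passage 6 to 30. Without MM401 they were 10.4% and 9.3%, and in rES passage 30 against ESC 35.3% and 35.8%. Against EpiSC, 10 of the 21 listed genes were higher and 7 lower in ESC (median 0.14), 8 and 9 at day 3 (0.10), 8 and 7 at P2 (0.04), 9 and 7 in rES passage 6 (0.36) and 10 and 6 in rES passage 30 (0.23). From day 3 to P2, 6 rose and 12 fell. From rES passage 6 to 30, 5 rose and 1 fell, and without MM401 3 were higher and 8 lower. Against ESC, rES passage 30 had 7 higher and 10 lower. Jarid2, a catalytically inactive JmjC protein of Polycomb complex PRC2, rose in ESC (1.19 ± 0.04, 267 to 608 CPM) and in rES passage 30 (1.30 ± 0.04). Hr, the JmjC gene hairless, rose at day 3 (2.53 ± 0.11, 4.56 to 26.3 CPM). Jmjd1c, a relative of Kdm3a and Kdm3b, fell at day 3 (-0.93 ± 0.04) and P2 (-1.48 ± 0.04, 239 to 85.7 CPM). Kdm7a, which acts on lysines 9 and 27, was higher in rES passage 30 than in ESC (1.76 ± 0.08, 15.6 to 52.9 CPM) and fell without MM401 (-0.30 ± 0.07). Kdm8 fell in rES passage 30 against EpiSC (-1.33 ± 0.15, 13.5 to 5.37 CPM).

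The CoREST complex joins Kdm1a to histone deacetylases, and a list of its other genes was counted beside Kdm1a, with no test of the list against it. Of 9 genes 4 were higher and 3 lower in ESC than in EpiSC, 6 and 2 at day 3, 3 and 3 at P2, 7 and 0 in rES passage 6, and 8 and 0 in rES passage 30, where Kdm1a was not called. Over all genes the shares higher and lower were 37% and 37.5% in ESC, 38.7% and 37.9% at day 3, and 42.1% and 33.8% at P2. In rES they were 38.7% and 35.1% at passage 6, and 38% and 38.3% at passage 30. Rcor2, a CoREST scaffold, rose from 153 CPM in EpiSC to 402 in ESC (1.39 ± 0.04), 403 at day 3 (1.40 ± 0.04) and 395 in rES passage 30 (1.37 ± 0.04). It fell from day 3 to P2 (-1.36 ± 0.04), to 157 CPM. Rcor1, a second scaffold, fell at day 3 (-0.80 ± 0.06). Gse1 rose in rES passage 30 (1.01 ± 0.05) and fell without MM401 (-0.32 ± 0.04). The calls among these 9 genes came to 4 higher and 5 lower from day 3 to P2, 2 and 0 from passage 6 to 30, 1 and 3 without MM401, and 5 and 0 in rES passage 30 against ESC. Over all genes the shares were 37.5% and 33.3% from day 3 to P2, and 11.3% and 14.4% from passage 6 to 30. They were 10.4% and 9.3% without MM401, and 35.3% and 35.8% in rES passage 30 against ESC.

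Partners of Kdm2b in PRC1.1 were counted beside Kdm2b, with no test of the list against it. Of 10 genes 2 were higher and 6 lower in ESC than in EpiSC, where Kdm2b rose 3.39-fold. At day 3, 7 were higher and 3 lower, at P2 5 and 4, in rES passage 6 7 and 2, and in rES passage 30 6 and 2. Over all genes the shares higher and lower were 37% and 37.5% in ESC, 38.7% and 37.9% at day 3, and 42.1% and 33.8% at P2. In rES they were 38.7% and 35.1% at passage 6, and 38% and 38.3% at passage 30. The deubiquitinase gene Usp7 rose in ESC (1.01 ± 0.03, 298 to 601 CPM) and in rES passage 30 (1.27 ± 0.03), and Yaf2, which binds Ring proteins, fell in both (-1.51 ± 0.09 and -1.46 ± 0.09). Bcor, the corepressor that assembles PRC1.1, fell at P2 (-0.97 ± 0.04, 115 to 58.7 CPM), where Kdm2b fell too. At day 3 Bcor was already below EpiSC (-0.24 ± 0.04), where Kdm2b was above it (0.30 ± 0.04). In ESC both were higher (0.86 ± 0.04 for Bcor). These day 3 and ESC values of Bcor were chosen after they were seen. Rnf2, a ubiquitin ligase subunit, and Rybp were higher in rES passage 30 than in ESC (1.06 ± 0.04 and 1.37 ± 0.09), where 7 of the 10 were higher and 2 lower. Without MM401 Bcor fell by 0.34 ± 0.04, and 1 of the 10 was higher and 2 were lower. From passage 6 to 30 5 rose and 0 fell, and from day 3 to P2 2 rose and 5 fell. Over all genes the shares were 11.3% and 14.4% from passage 6 to 30, and 37.5% and 33.3% from day 3 to P2. They were 10.4% and 9.3% without MM401, and 35.3% and 35.8% in rES passage 30 against ESC.

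Genes known from work in mouse embryonic stem cells as targets of Kdm3a (Tcl1, Tfcp2l1 and Zfp57) or Kdm4c (Nanog) were followed beside their demethylases. The imprint regulator gene Zfp57 rose from 95.9 CPM in EpiSC to 393 in ESC (2.03 ± 0.04), 612 at day 3 (2.67 ± 0.04), 419 at P2 (2.13 ± 0.04), 754.5 in rES passage 6 (2.98 ± 0.04) and 637 in rES passage 30 (2.73 ± 0.04). At day 3 it was above its ESC mean, while Kdm3a was at 193 CPM against 331 in ESC. Tcl1 was at 207 CPM at day 3 and 166 in ESC, and Nanog at 965 and 402.5 CPM, while Kdm4c was at 99.6 and 143 CPM. Tfcp2l1, like Kdm3a, was lower at day 3 (858 and 860 CPM) than in ESC (1003 and 997 CPM). Day 3 and ESC were not tested against each other. Between day 3 and P2, which were, Zfp57 (-0.55 ± 0.03), Nanog (-0.35 ± 0.04), Tcl1 (-0.24 ± 0.04) and Tfcp2l1 (-0.23 ± 0.04) all fell. Kdm3a (-0.66 ± 0.04) and Kdm4c (-0.33 ± 0.04) fell there too. Without MM401 Zfp57 (-0.14 ± 0.03), Tcl1 (-0.13 ± 0.04) and Tfcp2l1 (-0.14 ± 0.04) fell slightly, where Kdm3a was not called. Nanog (-0.05 ± 0.04) and Kdm4c (-0.05 ± 0.04) were not called there either. Tfcp2l1 is also among the naive markers counted above. Whether any of these genes depended on its demethylase in these cells was not tested.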

How the data were processed

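The authors deposited raw read counts per gene symbol. Per the submitters' processing notes the build was mm9 and the tools were TopHat2, Subread and DESeq, without versions. Per the labels' protocols the libraries were single-end TruSeq. The sources used here do not state strand or how reads with several matches were counted. Of the table's columns, 2 have names that fit no sample and stayed out. The 27 names read as dates (at most 0.254% of a library's counts) were kept.

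Counts were filtered with filterByExpr (16247 of 24015 genes), scaled with TMM and fitted with edgeR 4.0.16 in R 4.3.3 (robust glmQLFit, 1 mean per group, 14 libraries, 9 comparisons). A gene was called at a Benjamini-Hochberg adjusted p under 0.05. The standard error is the log2 fold change divided by the square root of F. Log2 CPM uses a prior count of 2. All 10 genes are named in every comparison, and from the related lists up to 3 called genes of at least 5 CPM by size of change. The genes and lists were chosen with earlier results of these data known. Likeness was taken for the 3 genes of widest range. The fit was tested on simulated counts, with far fewer genes changed than were called in these data. False calls were 1.32% (rES passage 30 against 6) to 7.34% (P2 against EpiSC) of the calls. Changes of 1.25-fold were recovered for 49.0% (rES passage 30 against ESC) to 65.3% (P2 against day 3) of the changed genes. The alternatives tried were DESeq2 1.42.0, RLE size factors, scaling to total counts, no filter, the 4 libraries compared, a replicate block and each library left out. Thinning to the smallest library, leaving out Rn45s and exon length were chosen after the data were seen.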

Additional observations from a re-analysis of the deposited data

Results flagged for a closer look

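The difference from EpiSC changed between day 3 and P2 for all 10 genes with edgeR (test of P2 against day 3, which is the test of that change), and for 9 with DESeq2. In the same edgeR test 70.8% of all 16247 genes were called, so such calls are not particular to these genes. The exception was Kdm5a, whose libraries overlapped and whose call was also lost with RLE size factors, with the 4 libraries alone, and without day 3 replicate 1 or P2 replicate 1. The change on the log2 scale was -0.77 for Kdm4b, -0.72 for Kdm2b, -0.68 for Kdm5b, -0.66 for Kdm3a, -0.45 for Kdm3b, -0.34 for Kdm1a, -0.33 for Kdm4c, -0.29 for Kdm4a, -0.27 for Kdm6b and 0.11 for Kdm5a. Kdm2b was above EpiSC at day 3 (0.30) and below it at P2 (-0.41), the only gene of the 10 called in opposite directions at the 2 times.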

How the results depend on the processing

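Of 1080 recomputed fold changes of the 10 genes, 1021 kept their direction and their side of the threshold, 30 lost and 6 gained a call, and 23 changed sign. With each library left out, 3 to 6 genes were called without MM401 against with it (5 with all libraries), and 0 to 1 were called and at least 2-fold at P2 against EpiSC (0 with all). The values that changed sign were at most 0.13 in size on the log2 scale as first reported. With total counts, Kdm5a was -0.026 in ESC and -0.14 at day 3 against EpiSC, Kdm1a was -0.080 at P2, -0.12 in rES passage 6 and -0.098 in rES passage 30 against EpiSC, and Kdm6b was -0.0029 from rES passage 6 to 30. Kdm1a in rES passage 6 against EpiSC was -0.034 with RLE size factors and with DESeq2, -0.0019 with no filter and -0.024 in the 4 libraries alone. From rES passage 6 to 30, Kdm4a was 0.024 with RLE size factors and with DESeq2 and 0.0075 with no filter, and Kdm4b was 0.018, 0.018 and 0.0025. Kdm5a at day 3 was -0.042 after thinning. With each library left out, Kdm5a at day 3 ran from -0.024 to 0.11, Kdm3a without MM401 from -0.0044 to 0.099, and, from rES passage 6 to 30, Kdm4a from -0.012 to 0.0093, Kdm4b from -0.090 to 0.075 and Kdm6b from -0.075 to 0.13. The cause was not tested.

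The replicate block changed none of the 90 calls of the 10 genes (with it, 10 were called in ESC against EpiSC and 5 without MM401 against with it). The labels tie no same-numbered libraries together, and the replicate differences of 2 groups had a correlation from -0.03 to 0.04 over 21 pairs of groups. Groups have 2 libraries each, which limits what small differences can be called.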

Other observations

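Demethylase genes of the sex chromosomes differed in level between groups, a set chosen after its values were seen. The X-linked lysine 4 demethylase gene Kdm5c had group means of 327 CPM in EpiSC, 378.5 in ESC, 258 at day 3 and 237.5 at P2, against 587 in rES passage 6, 618 in rES passage 30 and 569.9 without MM401. Kdm6a, X-linked and a paralog of Kdm6b, had 136 CPM in EpiSC, 189 in ESC, 160.3 at day 3, 128 at P2, 192 in rES passage 6, 231 in rES passage 30 and 208 without MM401. Phf8, also X-linked, had 47.4 CPM in EpiSC, 56.3 in ESC, 63.8 at day 3 and 67.6 at P2. It had 95 in rES passage 6, 99.6 in rES passage 30 and 84.2 without MM401. At day 3 and P2 it was above EpiSC (0.43 ± 0.05 and 0.51 ± 0.05), where Kdm5c was below (-0.34 ± 0.04 and -0.46 ± 0.04). The Y-linked relatives of Kdm5c and Kdm6a were low everywhere. Kdm5d was at 5.05 CPM in ESC and 5.14 at P2, against 0.992 to 1.91 in the other groups, and Uty at 3.25 and 4.39 CPM, against 0.899 to 1.9. The rES genotype label (CD1-deltaTSIX/JF1) differs from that of every other group, so line and state cannot be told apart for these genes.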
